A study of Mus musculus with 12 samples.

Results

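The genes described here encode RNA-binding proteins that carry arginine methylation or read it: the FET proteins, the heterogeneous nuclear ribonucleoproteins (hnRNPs), and nucleolar, paraspeckle and stress granule proteins with arginine- and glycine-rich stretches. The list held 38 genes, taken by name, and was chosen with earlier results of these data known. Its shares beside those of all genes are therefore a description and not a test. For 35 of them the array had a probe set assigned to that gene symbol alone, and all 35 were among the 14953 genes tested. Hnrnpa1, Hnrnpa3 and Hnrnph3 were covered only by probe sets that carry several symbols and are not reported. Where a gene had several probe sets, the one with the highest mean over the 12 arrays was taken.

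The cells were mouse neurons made from the embryonic stem cell line D3 and collected at day 16 of differentiation, which ran through embryoid bodies. There were 4 groups with 3 biological replicates each: unmodified D3 cells (D3), D3 cells given a scrambled sequence (siSCR), D3 cells in which PRMT1 was knocked down (siPRMT1), and D3 cells in which PRMT8 was (siPRMT8). All groups share the D3 parent line, and each group is 1 line, so the history of a line and its knockdown cannot be told apart. Whether the replicates of a line were differentiated separately is not stated in the labels, and the p-values therefore cover only the spread among these samples, which may be technical. RNA was read on 1-colour arrays as 1 log2 value per probe set, so a difference of 0.26 corresponds to a change of about 20%; levels of different genes are not compared, because probe sets differ in brightness. Array siSCR replicate 1 (r of 0.980 to 0.982 with its group over the tested genes) and array siPRMT1 replicate 2 (0.972 to 0.980) stood apart from their groups, while all other pairs within a group had an r between 0.993 and 0.997.

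PRMT1 is the enzyme that places most asymmetric dimethylarginine in mammalian cells, and PRMT8 is a close relative that is anchored to membranes and expressed mainly in neurons. Both methylate arginines in stretches rich in arginine and glycine, and such methylation is known to alter how RNA-binding proteins bind RNA, enter the nucleus, condense and are bound by Tudor-domain readers. The hnRNPs coat new transcripts and steer their splicing, export and decay, and neurons depend on several of them for mRNA transport into axons and dendrites. The arrays measured the transcripts of these proteins and not their methylation.

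Across both knockdown lines most of these transcripts lay above the controls by a small margin, and 1 gene lay well below. The comparison with the most calls was siPRMT8 against siSCR. There 18 of the 35 genes rose against siSCR and 2 fell, Cirbp and Hnrnpul1, at an adjusted p under 0.05 in limma. Of all genes tested in that comparison, 10.7% rose and 13.2% fell, and 23.8% changed either way, against 57.1% of the listed genes. The median difference of the 35 genes was 0.20, against 0.012 over all genes tested. The estimate was above 0 for 31 of the 35 genes and for 52.5% of all genes tested. The count was 24 without siSCR replicate 1 and siPRMT1 replicate 2, 10 without siSCR replicate 2, 8 without siSCR replicate 3, 11 without siPRMT8 replicate 1 and 8 without siPRMT8 replicate 3.

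In the PRMT1 knockdown, 3 of the 35 genes rose against siSCR, Hnrnpc, Taf15 and Gar1, and Cirbp fell. This share, 11.4%, was not above the 18.7% of all genes that changed in that comparison (7.18% rose and 11.6% fell). The median difference of the 35 genes was 0.14, against 0.036 over all genes, with 30 of 35 estimates above 0 and 57.3% of all genes. The count of calls depended on single arrays. It was 12 without siSCR replicate 1, 2 without siSCR replicate 3, 7 without siPRMT1 replicate 1, 8 without siPRMT1 replicate 2, and 13 when siSCR replicate 1 and siPRMT1 replicate 2 were both left out.

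The unmodified D3 cells served as the other control. Against D3, 15 of the 35 genes rose and 2 fell in siPRMT8, beside 12.5% and 15.2% of all genes (27.7% either way). The median difference was 0.18, against 0.028 over all genes. That count of 17 calls was 10 without D3 replicate 3, 11 without siPRMT8 replicate 1 and 11 without siPRMT8 replicate 3. In siPRMT1, 8 rose and 1 fell against D3, beside 11.7% and 14.7% of all genes. The median difference was 0.12, against 0.051 over all genes. Those 9 calls were 25.7% of the listed genes, not above the 26.4% of all genes that changed either way. Without D3 replicate 3 this count was 5 in place of 9, and without siSCR replicate 1 and siPRMT1 replicate 2 it was 12. Comparisons of the 2 knockdowns with 1 control share that control's arrays, so their calls are given side by side and not as 2 independent results.

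**Figure D1:**
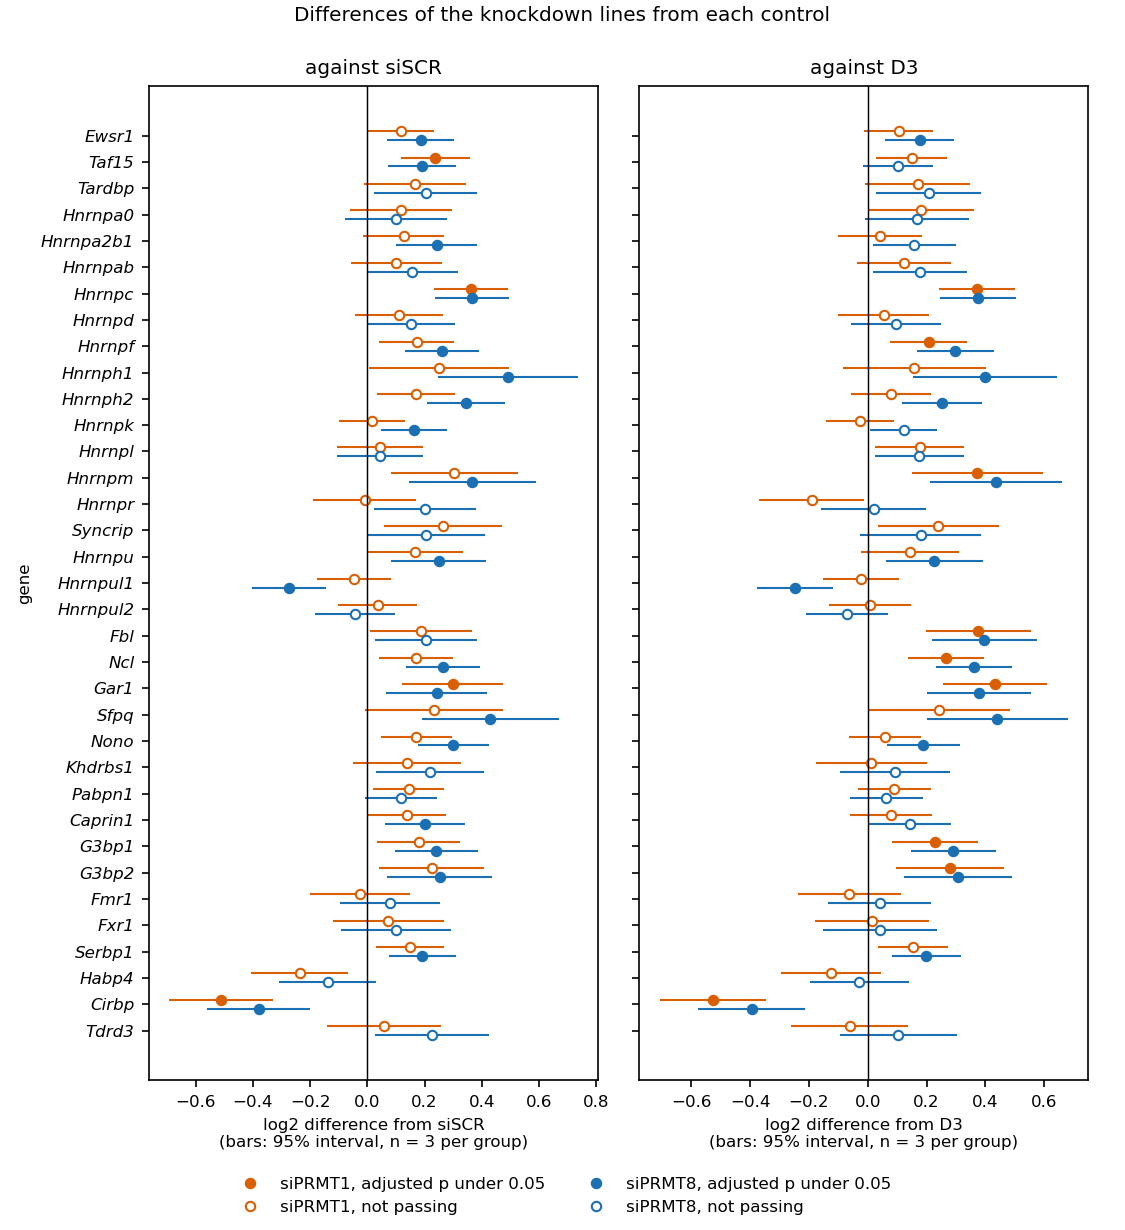
Difference of each knockdown line from siSCR (left) and from D3 (right) for the 35 genes, on the log2 scale, with 95% intervals from limma and 3 arrays per group; filled points have an adjusted p under 0.05. Most points lie to the right of 0, Cirbp lies to the left in all 4 contrasts, and Hnrnpul1 is to the left with a filled point in siPRMT8 alone, where it fell by 0.27 against siSCR.

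The labels were checked with the targeted genes. Prmt1 read 8.69, 8.86 and 8.71 on the D3 arrays, 8.84, 8.74 and 8.86 on the siSCR arrays, 7.72, 7.95 and 7.59 on the siPRMT1 arrays and 9.27, 9.20 and 9.27 on the siPRMT8 arrays. It fell by 1.06 in siPRMT1 against siSCR (adjusted p = 0.000115), and it rose by 0.43 in siPRMT8 (adjusted p = 0.00625). Prmt8 read 7.37, 7.41 and 7.40 on the D3 arrays, 6.60, 7.18 and 7.10 on the siSCR arrays, 6.35, 6.89 and 6.67 on the siPRMT1 arrays and 6.44, 6.17 and 6.44 on the siPRMT8 arrays, and it fell by 0.61 in siPRMT8 against siSCR (adjusted p = 0.0171). In siPRMT1 the difference of Prmt8 was -0.32 (adjusted p = 0.177) against siSCR and -0.75 (adjusted p = 0.00488) against D3. Prmt8 was thus also called lower in siPRMT1 against D3. Between the 2 knockdown lines Prmt8 differed by 0.29 (siPRMT1 minus siPRMT8) and was not called. Array siPRMT1 replicate 1, at 6.35, lay within the siPRMT8 range. Both transcripts remained in part: relative to siSCR, Prmt1 was 52.1% lower in siPRMT1 and Prmt8 34.5% lower in siPRMT8.

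Other measures also differed between the knockdown and control groups. Of all genes tested, 11.6% fell in siPRMT1 and 13.2% in siPRMT8 against siSCR, and 14.7% and 15.2% against D3. Rises made up 7.18% and 10.7% against siSCR, and 11.7% and 12.5% against D3. Of 16 neuron markers, 12 fell in siPRMT1 and 10 in siPRMT8 against siSCR, and 1 rose in siPRMT8; against D3, 14 fell in each. The mean level of that list lay between 9.47 and 9.59 in D3, 8.48 and 9.52 in siSCR, 8.18 and 8.40 in siPRMT1, and 8.32 and 8.54 in siPRMT8. Of the 7 astrocyte markers tested, 6 fell and 1 rose in every contrast of a knockdown with a control. Of 15 cell cycle genes tested, 5 rose in siPRMT1 and 6 in siPRMT8 against siSCR and none fell; their mean level lay between 9.90 and 10.03 in the controls and between 10.08 and 10.30 in the knockdowns. In bulk RNA, fewer cells of a type and less RNA per cell cannot be told apart. The part that these marker lists have in the values below was not tested. Among the controls the neuron list was lowest on siSCR replicate 1, at 8.48, which lay within the siPRMT8 range.

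The choice of genes did not use their promoters, which are described here. Windows of the 250 bases before the most upstream start were found for 35 of the 38 listed genes in RefSeq on GRCm38.p6; none was held for Hnrnpul2, Khdrbs1 and Fbl. CCAAT, the box bound by the factor NF-Y, occurred on either strand in 19 of 35 windows (54.3%), against 34.5% of the windows of 27025 genes. GGGCGG, the core of the GC box bound by SP1, occurred in 24 (68.6%), against 33.0%. TATAAA, the TATA box core, occurred in 2 (5.71%), against 13.0%, and CACGTG, the E-box bound by MYC, in 3 (8.57%), against 6.04%. These 4 were taken from 15 motifs after their counts were seen, CCAAT and GGGCGG can share bases and were counted separately, and no test was made. The windows of the listed genes were richer in G and C, with a median of 65.6% against 52% over the 27025 genes. A match is a description of the letters and not evidence of binding.

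The windows of 3 genes are shown: Cirbp and Hnrnpc, which had the smallest adjusted p of the list and moved in opposite directions in both lines, and Hnrnpul1, the other listed gene that fell. Hnrnpc lies at chr14:52104022-52104271 on the minus strand, Cirbp at chr10:80167589-80167838 on the plus strand and Hnrnpul1 at chr7:25754760-25755009 on the minus strand. Each is written along the gene's own strand, and capitals mark CCAAT or its reverse complement ATTGG, of which Hnrnpc has 4, Cirbp 2 and Hnrnpul1 3.
Hnrnpc: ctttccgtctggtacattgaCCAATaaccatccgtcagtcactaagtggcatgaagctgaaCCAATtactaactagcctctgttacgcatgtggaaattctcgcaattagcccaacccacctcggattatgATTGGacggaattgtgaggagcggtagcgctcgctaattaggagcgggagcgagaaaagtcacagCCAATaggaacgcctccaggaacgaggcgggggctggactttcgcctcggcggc
Cirbp: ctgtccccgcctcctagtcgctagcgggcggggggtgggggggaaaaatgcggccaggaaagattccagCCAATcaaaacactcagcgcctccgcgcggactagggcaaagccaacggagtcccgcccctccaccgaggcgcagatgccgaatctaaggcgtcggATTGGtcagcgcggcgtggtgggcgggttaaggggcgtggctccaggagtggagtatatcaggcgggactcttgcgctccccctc
Hnrnpul1: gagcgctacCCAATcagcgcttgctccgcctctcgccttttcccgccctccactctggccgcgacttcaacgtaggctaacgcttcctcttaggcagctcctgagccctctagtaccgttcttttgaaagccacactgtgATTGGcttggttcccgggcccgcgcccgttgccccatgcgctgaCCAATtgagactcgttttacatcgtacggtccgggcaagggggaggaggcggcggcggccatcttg

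Genes that rose and genes that fell thus both carried the CCAAT box in this window, and Gar1, which rose in every contrast of a knockdown with a control, had none of the 4 motifs there. The 4 CCAAT boxes of Hnrnpc were matched in number, among the genes reported, by Hnrnpl, Hnrnpr and Sfpq. Of these, Sfpq rose in siPRMT8, while Hnrnpl and Hnrnpr passed in no comparison.

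**Figure D2:**
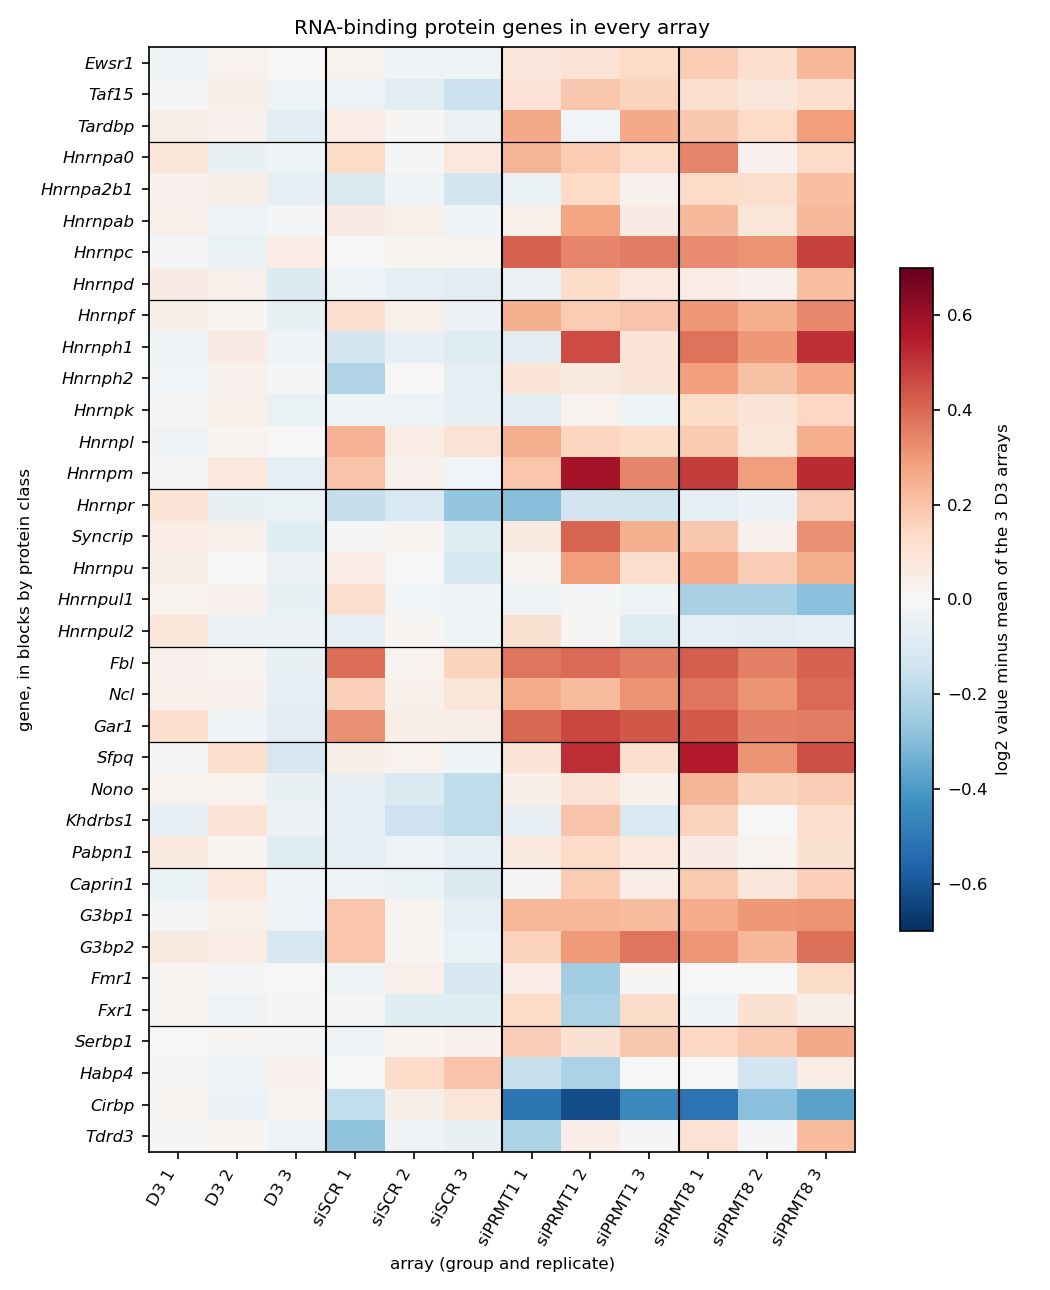
Value of each of the 35 genes on each of the 12 arrays, as the log2 value minus the mean of the 3 D3 arrays, in blocks by protein class; red is above and blue below D3. The 6 knockdown columns are mostly red, Cirbp is blue in all 6, and siPRMT1 replicate 2 stands apart from its group in Hnrnph1, Hnrnpm and Sfpq.

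The FET proteins bind nascent RNA and the carboxy-terminal tail of RNA polymerase II, and EWSR1 and TAF15 are methylated by PRMT1. Taf15 read 9.43, 9.48 and 9.39 on the D3 arrays, 9.40, 9.36 and 9.28 on the siSCR arrays, 9.54, 9.62 and 9.59 on the siPRMT1 arrays and 9.54, 9.51 and 9.55 on the siPRMT8 arrays. All 6 knockdown arrays lay above all 6 control arrays. Taf15 rose by 0.24 in siPRMT1 and by 0.19 in siPRMT8 (adjusted p = 0.0128 and 0.0269) against siSCR, with an SE of 0.055. Against D3 the differences were smaller, 0.15 (adjusted p = 0.0639) and 0.10 (adjusted p = 0.188), and did not pass. The call in siPRMT1 was lost without siSCR replicate 3 (adjusted p = 0.0589) and with a fit of only those 2 groups (adjusted p = 0.115), and that in siPRMT8 without siSCR replicate 2 or 3 or siPRMT8 replicate 1, 2 or 3 (adjusted p = 0.0524 to 0.104) and with a fit of only those 2 groups (adjusted p = 0.0639).

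Ewsr1 read 10.07, 10.13 and 10.11 on the D3 arrays, 10.13, 10.08 and 10.07 on the siSCR arrays, 10.18, 10.20 and 10.24 on the siPRMT1 arrays and 10.28, 10.22 and 10.34 on the siPRMT8 arrays. The knockdown arrays again lay above every control array, by a margin of less than 0.10 at the closest. Ewsr1 rose in siPRMT8 by 0.19 against siSCR (adjusted p = 0.0265) and by 0.18 against D3 (adjusted p = 0.0297), with an SE of 0.054. The differences of Ewsr1 in siPRMT1 were 0.12 (adjusted p = 0.153) and 0.11 (adjusted p = 0.163). The siPRMT8 call against siSCR was lost without siSCR replicate 2 or 3 or siPRMT8 replicate 1 or 3 (adjusted p = 0.0703 to 0.105) and with a fit of only those 2 groups (adjusted p = 0.0703), and that against D3 without D3 replicate 1, 2 or 3 or siPRMT8 replicate 1 or 3 (adjusted p = 0.0580 to 0.110) and with quantile normalisation, no filter on low genes or the replicate number as a block (adjusted p = 0.0522 to 0.0804). Tardbp encodes TDP-43, which represses cryptic exons and is grouped with the FET proteins in motor neuron disease. It ranged from 8.31 to 8.68 over the 12 arrays and passed in no comparison, with 0.20 (adjusted p = 0.0922) in siPRMT8 against siSCR. One siPRMT1 array, replicate 2 at 8.36, lay among the controls, while replicates 1 and 3 were both at 8.65.

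Among the hnRNPs of the A/B, C and D classes, Hnrnpc moved most. HNRNPC binds runs of uridine in new transcripts and keeps cryptic exons out of mRNA. Hnrnpc read 9.24, 9.20 and 9.30 on the D3 arrays, 9.24, 9.26 and 9.26 on the siSCR arrays, 9.66, 9.59 and 9.60 on the siPRMT1 arrays and 9.58, 9.56 and 9.72 on the siPRMT8 arrays. The groups did not overlap: the lowest knockdown array was at 9.56 and the highest control array at 9.30. The group means were 9.25 ± 0.012 in siSCR, 9.62 ± 0.039 in siPRMT1 and 9.62 ± 0.088 in siPRMT8 (SD, n = 3). Against siSCR it rose by 0.36 in siPRMT1, a 1.29-fold level (adjusted p = 0.00269), and by 0.37 in siPRMT8, 1.29-fold (adjusted p = 0.00213). The SE was 0.059. Against D3 the rises were 0.37 (adjusted p = 0.00119) and 0.37 (adjusted p = 0.00123). The 2 knockdown lines differed from each other by -0.0027 (95% interval -0.13 to 0.13), and siSCR differed from D3 by 0.0087. All 4 calls held when any 1 array was left out.

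Hnrnpa2b1 encodes a protein that carries mRNAs into neuronal processes. It read 10.41, 10.42 and 10.31 on the D3 arrays, 10.28, 10.35 and 10.25 on the siSCR arrays, 10.33, 10.52 and 10.41 on the siPRMT1 arrays and 10.52, 10.51 and 10.59 on the siPRMT8 arrays. The siPRMT8 arrays lay above every control array, while the siPRMT1 arrays overlapped both controls. Hnrnpa2b1 rose in siPRMT8 against siSCR by 0.24 (SE 0.065, adjusted p = 0.0195), and against D3 the difference was 0.16 (adjusted p = 0.0917). The first call was lost without siSCR replicate 3 or siPRMT8 replicate 3 (adjusted p = 0.0729 to 0.0794) and with quantile normalisation (adjusted p = 0.0706). Hnrnpa0, Hnrnpab and Hnrnpd, the last of which encodes the AU-rich element binding protein AUF1, passed in no comparison. Hnrnpa0 ranged from 7.34 to 7.73, Hnrnpab from 11.69 to 11.99 and Hnrnpd from 9.86 to 10.17 over the 12 arrays. Their siPRMT8 differences from siSCR were 0.10, 0.16 and 0.15.

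The F, H, K, L and M class held the largest rise in siPRMT8 against siSCR, that of Hnrnph1. Of its 6 measured genes, 5 rose in siPRMT8 against siSCR, beside 10.7% of all genes, with a class median of 0.30. In siPRMT1 against siSCR, where 7.18% of all genes rose, none of the 6 passed and the median was 0.17. The direct comparison of the lines called none of the 6. HNRNPF and HNRNPH1 and HNRNPH2 bind runs of guanosine and steer alternative splicing. Hnrnph1 read 10.65, 10.73 and 10.65 on the D3 arrays, 10.55, 10.62 and 10.59 on the siSCR arrays, 10.60, 11.14 and 10.77 on the siPRMT1 arrays and 11.06, 10.98 and 11.19 on the siPRMT8 arrays. The siPRMT8 arrays were above every control array, whereas the siPRMT1 arrays were spread over more than 0.5, with replicate 2 high and replicate 1 at the level of the controls. Hnrnph1 rose in siPRMT8 by 0.49 against siSCR, 1.41-fold (adjusted p = 0.00973, SE 0.11), and by 0.40 against D3 (adjusted p = 0.0205). The differences of Hnrnph1 in siPRMT1 were 0.25 (adjusted p = 0.140) and 0.16 (adjusted p = 0.307). The call against siSCR held when any 1 array was left out, and that against D3 was lost without D3 replicate 1 or 3 or siPRMT8 replicate 1 or 3 (adjusted p = 0.0518 to 0.0841) and with quantile normalisation (adjusted p = 0.0544).

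Hnrnph2 read 8.17, 8.22 and 8.18 on the D3 arrays, 7.98, 8.19 and 8.12 on the siSCR arrays, 8.28, 8.25 and 8.28 on the siPRMT1 arrays and 8.48, 8.39 and 8.46 on the siPRMT8 arrays. The arrays formed 3 levels without overlap, with the controls lowest, siPRMT1 between 8.25 and 8.28, and siPRMT8 between 8.39 and 8.48. Hnrnph2 rose in siPRMT8 by 0.34 against siSCR (SE 0.062, adjusted p = 0.00331) and by 0.25 against D3 (adjusted p = 0.0109), both held when any 1 array was left out. The differences of Hnrnph2 in siPRMT1 were 0.17 (adjusted p = 0.0776) and 0.080 (adjusted p = 0.354). The direct difference between the lines, -0.17 (95% interval -0.31 to -0.037), had an adjusted p of 0.306.

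Hnrnpf read 11.09, 11.06 and 11.00 on the D3 arrays, 11.17, 11.08 and 11.01 on the siSCR arrays, 11.30, 11.22 and 11.25 on the siPRMT1 arrays and 11.35, 11.30 and 11.39 on the siPRMT8 arrays. Every knockdown array exceeded every control array, and every siPRMT8 array exceeded the siPRMT1 arrays, narrowly at 11.30. Hnrnpf rose in siPRMT8 by 0.26 against siSCR (SE 0.060, adjusted p = 0.0100) and by 0.30 against D3 (adjusted p = 0.00393). In siPRMT1 it rose by 0.21 against D3 (adjusted p = 0.0244), a call lost without D3 replicate 2 or 3 or siPRMT1 replicate 1 or 3 (adjusted p = 0.0579 to 0.0942), and the difference from siSCR was 0.17 (adjusted p = 0.0665).

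Hnrnpm, whose protein binds GU-rich introns, read 9.19, 9.27 and 9.13 on the D3 arrays, 9.40, 9.23 and 9.18 on the siSCR arrays, 9.39, 9.78 and 9.54 on the siPRMT1 arrays and 9.69, 9.49 and 9.72 on the siPRMT8 arrays. The siPRMT8 arrays lay above the controls, and the siPRMT1 arrays did so except replicate 1 at 9.39, just below siSCR replicate 1 at 9.40. Hnrnpm rose in siPRMT8 by 0.37 against siSCR (SE 0.10, adjusted p = 0.0233) and by 0.44 against D3, 1.35-fold (adjusted p = 0.00846). In siPRMT1 it rose by 0.37 against D3 (adjusted p = 0.0195), and the difference from siSCR was 0.30 (adjusted p = 0.0584). The call against siSCR was lost without siSCR replicate 2 or 3 or siPRMT8 replicate 1 or 3 (adjusted p = 0.0767 to 0.0931), and the siPRMT1 call against D3 without D3 replicate 1 or 3 (adjusted p = 0.0585 to 0.0719).

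Hnrnpk, which encodes a C-rich sequence binder that PRMT1 is known to methylate, ranged from 11.75 to 11.97 and passed once, with a rise of 0.16 in siPRMT8 against siSCR (adjusted p = 0.0437). That call was lost when any 1 of the 6 arrays compared was left out (adjusted p = 0.0553 to 0.131), and with quantile normalisation, median centring, no filter on low genes, the replicate number as a block or a fit of only those 2 groups (adjusted p = 0.0571 to 0.223). In siPRMT1 its difference was 0.015. Hnrnpl, whose protein binds CA repeats, ranged from 10.10 to 10.38 and passed in no comparison. Its differences from siSCR were 0.045 in siPRMT1 and 0.044 in siPRMT8.

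The R, Q and U class was mixed. HNRNPU is a nuclear matrix scaffold, and HNRNPUL1 is its relative with a known part in the repair of DNA ends. Hnrnpul1 read 10.02, 10.03 and 9.95 on the D3 arrays, 10.12, 9.98 and 9.97 on the siSCR arrays, 9.97, 9.99 and 9.97 on the siPRMT1 arrays and 9.77, 9.77 and 9.71 on the siPRMT8 arrays. The siPRMT8 arrays lay below all 9 others, by 0.17 at the closest, and the siPRMT1 arrays lay within the range of the controls. It fell in siPRMT8 by 0.27 against siSCR, to a level 17.2% lower (SE 0.059, adjusted p = 0.00774), and by 0.25 against D3 (adjusted p = 0.00922). Both calls held when any 1 array was left out. The differences of Hnrnpul1 in siPRMT1 were -0.047 (adjusted p = 0.606) and -0.023 (adjusted p = 0.801). The direct difference of siPRMT1 from siPRMT8 was 0.23 (95% interval 0.097 to 0.35) with an adjusted p of 0.176 over all genes, so a difference between the lines was not called.

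Hnrnpu read 11.21, 11.17 and 11.13 on the D3 arrays, 11.22, 11.17 and 11.04 on the siSCR arrays, 11.19, 11.46 and 11.29 on the siPRMT1 arrays and 11.43, 11.34 and 11.42 on the siPRMT8 arrays. The siPRMT8 arrays were above all controls, and the siPRMT1 arrays overlapped them. Hnrnpu rose in siPRMT8 by 0.25 against siSCR (SE 0.076, adjusted p = 0.0340) and by 0.23 against D3 (adjusted p = 0.0444). The first call was lost without siSCR replicate 2 or 3 or siPRMT8 replicate 1 or 3 (adjusted p = 0.0735 to 0.130) and with quantile normalisation or the replicate number as a block (adjusted p = 0.0517 to 0.0704), and the second when any 1 of the 6 arrays compared was left out (adjusted p = 0.0594 to 0.134), and with quantile normalisation, no filter on low genes or the replicate number as a block (adjusted p = 0.0633 to 0.0955). The differences of Hnrnpu in siPRMT1 were 0.17 (adjusted p = 0.146) and 0.14 (adjusted p = 0.177).

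Hnrnpr, Syncrip and Hnrnpul2 passed in no comparison. HNRNPR and its close relative SYNCRIP, also called hnRNP Q, carry mRNAs in axons and dendrites. Hnrnpr ranged from 7.95 to 8.42, with -0.19 (adjusted p = 0.105) in siPRMT1 against D3, where the groups did not overlap. The siSCR arrays of Hnrnpr also lay below all D3 arrays, with a difference of -0.18 (adjusted p = 0.514). Against siSCR the siPRMT1 difference was -0.0097, and the arrays overlapped. Syncrip ranged from 9.47 to 9.96, with 0.26 (adjusted p = 0.0730) in siPRMT1 against siSCR. Hnrnpul2 ranged from 9.40 to 9.59, and none of its 6 differences exceeded 0.10 in size.

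The nucleolar proteins with such stretches were above D3 in both knockdown lines, and all 3 of their genes rose there, beside 11.7% of all genes in siPRMT1 and 12.5% in siPRMT8. Fibrillarin (Fbl) methylates ribosomal RNA in box C/D particles, GAR1 is a core protein of the H/ACA particles that guide pseudouridylation, and nucleolin (Ncl) acts in ribosomal RNA synthesis. Ncl read 11.04, 11.04 and 10.94 on the D3 arrays, 11.17, 11.04 and 11.09 on the siSCR arrays, 11.27, 11.23 and 11.32 on the siPRMT1 arrays and 11.38, 11.32 and 11.40 on the siPRMT8 arrays. All knockdown arrays exceeded all controls, and siSCR lay slightly above D3. It rose against D3 by 0.27 in siPRMT1 (adjusted p = 0.00704) and 0.36 in siPRMT8, 1.28-fold (adjusted p = 0.00142), with an SE of 0.059. Against siSCR it rose by 0.26 in siPRMT8 (adjusted p = 0.00896), and the siPRMT1 difference was 0.17 (adjusted p = 0.0682).

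Gar1 read 8.38, 8.24 and 8.19 on the D3 arrays, 8.59, 8.31 and 8.32 on the siSCR arrays, 8.67, 8.74 and 8.70 on the siPRMT1 arrays and 8.70, 8.62 and 8.63 on the siPRMT8 arrays. The knockdown arrays were again above all controls, with siSCR replicate 1 the nearest at 8.59. Against D3 it rose by 0.43 in siPRMT1, 1.35-fold, and by 0.38 in siPRMT8 (adjusted p = 0.00265 and 0.00525, SE 0.081). Against siSCR it rose by 0.30 (adjusted p = 0.0253) and 0.24 (adjusted p = 0.0481). Those 2 calls were lost without siSCR replicate 2 or 3 or siPRMT1 replicate 3 (adjusted p = 0.0664 to 0.106) and with a fit of only those 2 groups (adjusted p = 0.126), and without siSCR replicate 2 or 3 or siPRMT8 replicate 1, 2 or 3 (adjusted p = 0.0831 to 0.167) and with median centring, no filter on low genes or a fit of only those 2 groups (adjusted p = 0.0569 to 0.0899), respectively. Without siSCR replicate 1 the siPRMT1 rise was 0.39 (adjusted p = 0.00163).

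Fbl read 9.44, 9.43 and 9.36 on the D3 arrays, 9.80, 9.43 and 9.56 on the siSCR arrays, 9.78, 9.81 and 9.77 on the siPRMT1 arrays and 9.83, 9.76 and 9.82 on the siPRMT8 arrays. The knockdown arrays lay between 9.76 and 9.83, and siSCR replicate 1, at 9.80, lay among them while the other siSCR arrays were at 9.43 and 9.56. Against D3 Fbl rose by 0.38 in siPRMT1 and by 0.40 in siPRMT8 (adjusted p = 0.00600 and 0.00440, SE 0.082). Against siSCR the differences were 0.19 (adjusted p = 0.135) and 0.21 (adjusted p = 0.0885). Without siSCR replicate 1 the siPRMT1 difference from siSCR was 0.29 and passed (adjusted p = 0.00637). The calls of Fbl, Gar1 and Ncl against D3 held when any 1 array was left out.

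**Figure D3:**
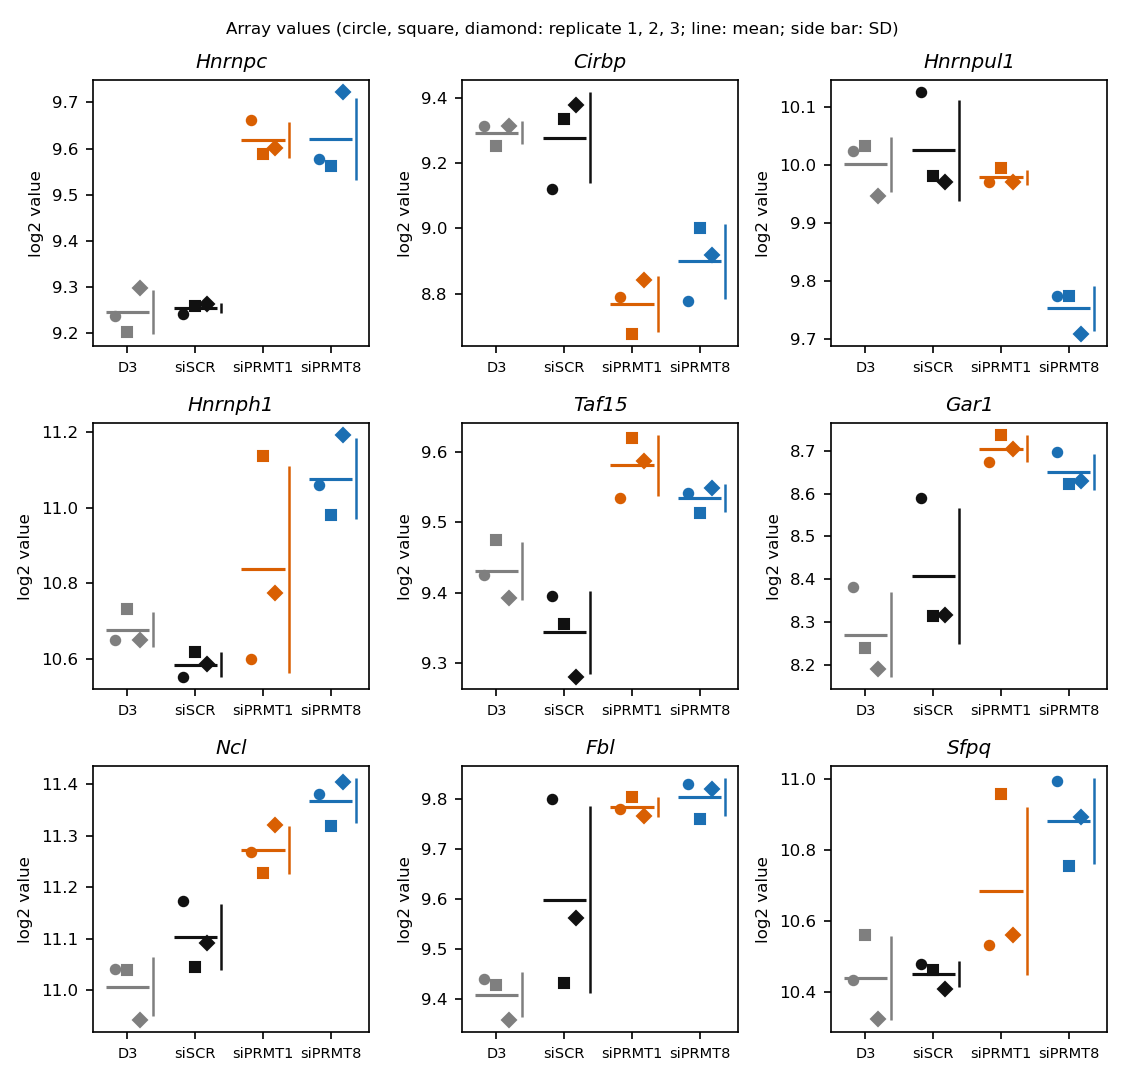
Log2 values of 9 of the genes on each array, by group; the marker shape gives the replicate, the horizontal line the group mean and the side bar the SD (n = 3). Each panel has its own scale. Hnrnpc lies higher and Cirbp lower in both knockdowns, Hnrnpul1 lies low only on the siPRMT8 arrays, and Fbl on siSCR replicate 1 sits at the knockdown level of 9.80.

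Paraspeckles are nuclear bodies built on a long noncoding RNA, and SFPQ and NONO are their paired core proteins. Nono read 10.93, 10.94 and 10.86 on the D3 arrays, 10.85, 10.81 and 10.73 on the siSCR arrays, 10.95, 11.01 and 10.94 on the siPRMT1 arrays and 11.15, 11.06 and 11.08 on the siPRMT8 arrays. All knockdown arrays were above all controls, with the siPRMT1 arrays nearest to D3. Nono rose in siPRMT8 by 0.30 against siSCR (SE 0.057, adjusted p = 0.00402), which held when any 1 array was left out, and by 0.19 against D3 (adjusted p = 0.0282), which was lost without D3 replicate 1, 2 or 3 or siPRMT8 replicate 1 or 3 (adjusted p = 0.0560 to 0.111) and with quantile normalisation (adjusted p = 0.0911). The differences of Nono in siPRMT1 were 0.17 (adjusted p = 0.0559) and 0.059 (adjusted p = 0.456).

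Sfpq read 10.43, 10.56 and 10.32 on the D3 arrays, 10.48, 10.46 and 10.41 on the siSCR arrays, 10.53, 10.96 and 10.56 on the siPRMT1 arrays and 11.00, 10.75 and 10.89 on the siPRMT8 arrays. The siPRMT8 arrays lay above all controls, and in siPRMT1 replicate 2 was at the siPRMT8 level while replicates 1 and 3 were near the controls. Sfpq rose in siPRMT8 by 0.43 against siSCR, 1.35-fold (adjusted p = 0.0164, SE 0.11), and by 0.44 against D3 (adjusted p = 0.0116). The first call was lost without siSCR replicate 3 or siPRMT8 replicate 1 or 3 (adjusted p = 0.0568 to 0.0643), and the second without D3 replicate 3 or siPRMT8 replicate 1 (adjusted p = 0.0512 to 0.0537). The differences of Sfpq in siPRMT1 were 0.23 (adjusted p = 0.162) and 0.24 (adjusted p = 0.121). Khdrbs1, which encodes the splicing regulator and PRMT1 substrate SAM68, ranged from 9.83 to 10.21 and passed in no comparison, with 0.22 (adjusted p = 0.0858) in siPRMT8 against siSCR. Pabpn1, for the nuclear poly(A)-binding protein, ranged from 10.66 to 10.88 and passed in none, with 0.14 (adjusted p = 0.102) in siPRMT1 against siSCR.

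Stress granules are cytoplasmic assemblies of stalled mRNAs, nucleated by G3BP1 and G3BP2 with their partner CAPRIN1. G3bp1 read 9.81, 9.86 and 9.79 on the D3 arrays, 10.01, 9.83 and 9.76 on the siSCR arrays, 10.05, 10.05 and 10.04 on the siPRMT1 arrays and 10.08, 10.12 and 10.13 on the siPRMT8 arrays. The knockdown arrays exceeded all controls, narrowly for siSCR replicate 1 at 10.01. G3bp1 rose in siPRMT8 by 0.24 against siSCR (SE 0.066, adjusted p = 0.0221) and by 0.29 against D3 (adjusted p = 0.00732), and in siPRMT1 by 0.23 against D3 (adjusted p = 0.0251). The siPRMT1 difference from siSCR was 0.18 (adjusted p = 0.0825), and it was 0.25 and passed without siSCR replicate 1 (adjusted p = 0.00782). The siPRMT8 call against siSCR was lost without siSCR replicate 2 or 3 or siPRMT8 replicate 2 or 3 (adjusted p = 0.0587 to 0.0920) and with a fit of only those 2 groups (adjusted p = 0.0676), and the siPRMT1 call against D3 without D3 replicate 1 or 3 or siPRMT1 replicate 1 or 3 (adjusted p = 0.0514 to 0.0844).

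G3bp2 read 10.01, 10.00 and 9.83 on the D3 arrays, 10.14, 9.97 and 9.90 on the siSCR arrays, 10.11, 10.25 and 10.33 on the siPRMT1 arrays and 10.26, 10.18 and 10.33 on the siPRMT8 arrays. Only siSCR replicate 1, at 10.14, reached the knockdown range among the controls. G3bp2 rose in siPRMT8 by 0.25 against siSCR (SE 0.084, adjusted p = 0.0478) and by 0.31 against D3 (adjusted p = 0.0183), and in siPRMT1 by 0.28 against D3 (adjusted p = 0.0297). The siPRMT1 difference from siSCR was 0.22 (adjusted p = 0.0855). The call against siSCR was lost without siSCR replicate 2 or 3 or siPRMT8 replicate 1, 2 or 3 (adjusted p = 0.0574 to 0.167) and with quantile normalisation, median centring, no filter on low genes, the replicate number as a block or a fit of only those 2 groups (adjusted p = 0.0580 to 0.0759), the siPRMT8 call against D3 without D3 replicate 3 or siPRMT8 replicate 1 or 3 (adjusted p = 0.0513 to 0.0824), and the siPRMT1 call without D3 replicate 2 or 3 or siPRMT1 replicate 3 (adjusted p = 0.0545 to 0.118) and with the replicate number as a block or a fit of only those 2 groups (adjusted p = 0.0519).

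Caprin1 read 10.99, 11.11 and 11.00 on the D3 arrays, 11.01, 10.98 and 10.93 on the siSCR arrays, 11.04, 11.21 and 11.08 on the siPRMT1 arrays and 11.21, 11.11 and 11.20 on the siPRMT8 arrays. The siPRMT8 arrays were above the siSCR arrays, and D3 replicate 2, at 11.11, came level with the lowest of them to 2 decimals. Caprin1 rose in siPRMT8 against siSCR by 0.20 (SE 0.064, adjusted p = 0.0395), a call lost without siSCR replicate 2 or 3 or siPRMT8 replicate 1 or 3 (adjusted p = 0.0907 to 0.126) and with quantile normalisation, no filter on low genes, the replicate number as a block or a fit of only those 2 groups (adjusted p = 0.0579 to 0.0880). The other differences of Caprin1 from a control were 0.14 (adjusted p = 0.154) in siPRMT1 against siSCR, and against D3 0.080 in siPRMT1 and 0.14 in siPRMT8. Fmr1 and Fxr1 encode FMRP, the translational repressor lost in fragile X syndrome, and its paralogue. Fmr1 ranged from 8.90 to 9.27 and Fxr1 from 10.05 to 10.41, and neither passed in any comparison. Both were lowest on siPRMT1 replicate 2, at 8.90 and 10.05.

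SERBP1 binds ribosomes and mRNA, HABP4 is its paralogue, and CIRBP is an RNA chaperone whose level rises in the cold and whose arginine- and glycine-rich tail is methylated. Cirbp was the gene of the list with the smallest adjusted p. It read 9.31, 9.25 and 9.32 on the D3 arrays, 9.12, 9.34 and 9.38 on the siSCR arrays, 8.79, 8.68 and 8.84 on the siPRMT1 arrays and 8.78, 9.00 and 8.92 on the siPRMT8 arrays. All knockdown arrays lay below all controls, with siSCR replicate 1, at 9.12, nearest to them. Cirbp fell against siSCR by 0.51 in siPRMT1, to a level 29.8% lower (SE 0.083, adjusted p = 0.00260), and by 0.38 in siPRMT8, 23.1% lower (adjusted p = 0.00811). Against D3 it fell by 0.53 (adjusted p = 0.00112) and 0.39 (adjusted p = 0.00488). The 4 calls held when any 1 array was left out, and without siSCR replicate 1 the siPRMT1 fall was 0.59 (adjusted p = 0.000227). The related cold-inducible gene Rbm3, which is on the list of other splicing factors, rose in siPRMT8 by 0.37 against siSCR (adjusted p = 0.00802).

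Serbp1 read 11.09, 11.10 and 11.08 on the D3 arrays, 11.06, 11.10 and 11.12 on the siSCR arrays, 11.26, 11.19 and 11.27 on the siPRMT1 arrays and 11.23, 11.27 and 11.35 on the siPRMT8 arrays. The knockdown arrays were above every control array. Serbp1 rose in siPRMT8 by 0.19 against siSCR (SE 0.054, adjusted p = 0.0246) and by 0.20 against D3 (adjusted p = 0.0178), and in siPRMT1 the differences were 0.15 (adjusted p = 0.0794) and 0.16 (adjusted p = 0.0537). The first call was lost without siSCR replicate 2 or 3 or siPRMT8 replicate 2 or 3 (adjusted p = 0.0526 to 0.102) and with a fit of only those 2 groups (adjusted p = 0.0659), and the second without D3 replicate 1 or 3 or siPRMT8 replicate 3 (adjusted p = 0.0562 to 0.0756). Habp4 ranged from 6.84 to 7.26 and passed in no comparison, with -0.24 (adjusted p = 0.0541) in siPRMT1 against siSCR, which became -0.29 and passed without siSCR replicate 1 (adjusted p = 0.0221). Tdrd3, whose protein reads asymmetric dimethylarginine through a Tudor domain, ranged from 8.11 to 8.61 and passed in none, with 0.22 (adjusted p = 0.0946) in siPRMT8 against siSCR.

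Over both lines together, the 6 knockdown arrays lay above the 6 control arrays for 10 of the 35 genes: Ewsr1, Taf15, Hnrnpc, Hnrnpf, Hnrnph2, Ncl, Gar1, Nono, G3bp1 and Serbp1. Of all genes tested, 7.06% did so. They lay below for Cirbp, as for 9.49% of all genes, and overlapped for the other 24. The sets of arrays that did not overlap in single comparisons were more frequent. In siPRMT8 against siSCR 26 genes were separated upward and 2 downward, beside 20.6% and 21.2% of all genes (41.8% either way). In siPRMT1 against siSCR 14 were separated upward and 1 downward, beside 15.2% and 14.8% of all genes (30.0% either way). Against D3 the counts were 22 and 3 in siPRMT8, beside 27.2% and 25.3% (52.6% either way), and 16 and 2 in siPRMT1, beside 23.6% and 20.6% (44.2% either way).

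The listed genes also shifted together between replicates of 1 group. On siPRMT8 replicate 2, 28 of the 35 genes were below both other siPRMT8 arrays, against 33.1% of all genes, and on siPRMT8 replicate 3, 21 were above both others, against 36.5%. On D3 replicate 3 and siSCR replicate 3, 21 genes each were below their group, against 34.9% and 36.6% of all genes, and on siSCR replicate 1, 22 were above it, against 46.3% of all genes. The mean level of the 35 genes lay between 9.76 and 9.82 on the D3 arrays, between 9.76 and 9.82 on the siSCR arrays, between 9.87 and 9.94 on the siPRMT1 arrays and between 9.91 and 10.01 on the siPRMT8 arrays. The knockdown and control ranges of this mean did not overlap. Genes that move together in this way are not independent of each other.

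No listed gene passed between the 2 controls. In siSCR against D3, limma called none of the 35 genes and 0.154% of all genes (0.0602% higher, 0.0936% lower), 2 of the 35 (5.71%) had an unadjusted p under 0.05, beside 9.56% of all genes, and array weights also called none. The median difference was -0.015, and the differences ranged from -0.18 for Hnrnpr to 0.19 for Fbl. Hnrnpl, at 0.13, and Ncl, at 0.096, were separated upward without passing, and 4 genes were separated downward, beside 10.7% and 9.56% of all genes (20.3% either way).

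The direct comparison of the 2 knockdown lines also called none of the 35 genes, beside 0.154% of all genes (0.0869% higher and 0.0669% lower in siPRMT1). An unadjusted p under 0.05 was found for 5 genes (14.3%), 1 higher and 4 lower in siPRMT1, beside 12.2% of all genes, and the median difference was -0.063, with 8 estimates above 0. The arrays of the lines were separated for 1 gene upward and 6 downward, beside 8.00% and 7.82% of all genes (15.8% either way). So the larger number of calls in siPRMT8 is not shown to be a difference between the lines. Hnrnph1, at -0.24 (95% interval -0.48 to 0.0040), became -0.39 and passed without siPRMT1 replicate 2 (adjusted p = 0.0201), as did Sfpq at -0.33 (adjusted p = 0.0429). With array weights, which count an array less the more it departs from its group, Hnrnph1 passed at -0.31 (adjusted p = 0.0300) and Hnrnpul1 at 0.22 (adjusted p = 0.0295). Without both arrays that stood apart, 3 genes passed: Hnrnph1, Hnrnpul1 and Sfpq.

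For 5 of the genes more than 1 probe set could be compared. The 4 probe sets of Hnrnpf gave siPRMT8 differences from siSCR of 0.25 to 0.27, and the 3 of Hnrnpk gave 0.16 to 0.23. The pair of Hnrnph2 gave 0.34 and 0.34, that of Fbl 0.21 and 0.23, and that of Khdrbs1 0.22 and 0.23. Against D3, where Fbl was called, its probe sets differed more: the one used gave 0.38 in siPRMT1 and 0.40 in siPRMT8, and the other 0.26 and 0.30. For siSCR against D3 they gave 0.19 and 0.071. Several hnRNP genes have processed copies elsewhere in the genome, so a probe set of 1 gene may also read a near-identical copy, and these values are uncertain to that extent.

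The genes around this set were followed in 5 lists, also chosen with earlier results of these data known. Against siSCR, 18.7% of all genes passed in siPRMT1 (7.18% rose) and 23.8% in siPRMT8 (10.7% rose); against D3, 26.4% passed in siPRMT1 (11.7% rose) and 27.7% in siPRMT8 (12.5% rose). The shares of each list are given below in this order. Of 14 nucleolar partners of Fbl, Ncl and Gar1, 9 rose in siPRMT1 and 8 in siPRMT8 against siSCR, with medians of 0.28 and 0.25, and 11 and 10 rose against D3, while none fell. These are shares of 64.3%, 57.1%, 78.6% and 71.4%. In siSCR against D3 none of the 14 was called, but 12 estimates were above 0, with a median of 0.099. The arrays of those controls were separated upward for 6 of the 14, beside 10.7% of all genes. Part of the difference from D3 was thus also present in siSCR. Nip7, a ribosome assembly factor, rose by 0.38 in siPRMT1 and by 0.44 in siPRMT8 (adjusted p = 0.0112 and 0.00481) against siSCR. Nop2, a ribosomal RNA methyltransferase, rose by 0.38 in siPRMT1 against siSCR (adjusted p = 0.0125) and by 0.58 against D3 (adjusted p = 0.000902). In siPRMT8, Nop2 rose by 0.54 against D3 (adjusted p = 0.00131). Nolc1, a chaperone of small nucleolar particles, rose by 0.35 in siPRMT8 against siSCR (adjusted p = 0.00401). On the siPRMT1 arrays Nolc1 read 9.37, 9.46 and 9.38, also above the siSCR arrays (9.21, 9.05 and 9.03). Rrp9, a protein of the U3 particle, rose by 0.62 in siPRMT1 against D3 (adjusted p = 0.00237). On the siPRMT8 arrays Rrp9 read 8.42, 8.40 and 8.29, at the level of the siSCR arrays (8.43, 8.35 and 8.31). The cell cycle genes that moved alongside are given above, and their part in this was not tested.

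Of 26 other hnRNP and splicing genes listed, 23 were tested. In siPRMT8 against siSCR 9 rose and none fell, with a median of 0.13, and in siPRMT1 2 rose and 1 fell, with a median of 0.040. Against D3, 6 rose and 1 fell in siPRMT8, and 3 rose and 2 fell in siPRMT1. The shares that passed were 13.0%, 39.1%, 21.7% and 30.4%, so those in siPRMT1 were below the shares of all genes. Pspc1, which joins SFPQ and NONO in paraspeckles, rose by 0.37 in siPRMT1 and by 0.32 in siPRMT8 (adjusted p = 0.00680 and 0.0108) against siSCR. Ptbp1, a splicing repressor of non-neuronal cells, rose in siPRMT1 by 0.32 against D3 (adjusted p = 0.00234) and by 0.18 against siSCR (adjusted p = 0.0486). Ptbp1 was already 0.14 above D3 in siSCR, which was not called. It read 11.38, 11.35 and 11.31 on the siPRMT8 arrays. The D3 arrays were at 11.09, 11.10 and 11.12 and the siSCR arrays at 11.31, 11.17 and 11.24. Ptbp2, the neuronal paralogue of Ptbp1, fell in siPRMT1 by 0.48 against D3 (adjusted p = 0.0182). Against siSCR, Ptbp2 passed in neither line. In siSCR against D3 its difference was already -0.29, which was not called. Khdrbs2, a brain paralogue of Khdrbs1, fell in siPRMT1 by 0.70 against siSCR (adjusted p = 0.0142), beside the fall of the neuron markers. In siPRMT8, Khdrbs2 fell by 0.75 against D3 (adjusted p = 0.00626). Raly, a relative of Hnrnpc, rose in siPRMT8 against D3 by 0.28 (adjusted p = 0.00648).

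Among the 9 arginine methyltransferases, 1 rose and 2 fell in siPRMT1 against siSCR, the latter being Prmt1 itself and Prmt2. In siPRMT8 1 rose and 1 fell, Prmt1 and Prmt8. Against D3 3 rose and 3 fell in siPRMT1, and 2 rose and 2 fell in siPRMT8. The shares that passed, the targeted genes included, were 33.3%, 22.2%, 66.7% and 44.4%. The median difference from siSCR was -0.012 in siPRMT1 and 0.095 in siPRMT8. Prmt5, the main enzyme of symmetric dimethylation, rose in siPRMT1 against siSCR by 0.20 (adjusted p = 0.0311), and Prmt2 fell by 0.45 (adjusted p = 0.0179). Prmt3 rose against D3 by 0.40 in siPRMT1 and 0.42 in siPRMT8 (adjusted p = 0.0118 and 0.00911). Its difference of siSCR from D3 was already 0.15, which was not called. Prmt9, which methylates a splicing factor, rose in siPRMT1 against D3 by 0.25 (adjusted p = 0.0360).

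Of 11 cofactors of these enzymes and Tudor readers, 3 rose and none fell in siPRMT1 against siSCR, and 4 rose and 1 fell in siPRMT8, with medians of 0.13 and 0.070. Against D3, 4 rose and 1 fell in siPRMT1, and 2 rose and 2 fell in siPRMT8. The shares that passed were 27.3%, 45.5%, 45.5% and 36.4%. Clns1a, the adaptor of PRMT5 for spliceosomal Sm proteins, rose by 0.33 in siPRMT1 and 0.36 in siPRMT8 (adjusted p = 0.0144 and 0.00821) against siSCR. Wdr77, the obligate partner of PRMT5, rose by 0.24 in siPRMT1 against siSCR (adjusted p = 0.0248). Against D3, Wdr77 rose by 0.36 in siPRMT1 and 0.37 in siPRMT8 (adjusted p = 0.00187 and 0.00172). It read 9.97, 9.82 and 9.94 on the siPRMT8 arrays, beside 9.76, 9.61 and 9.62 on the siSCR arrays. Riok1, an alternative adaptor, rose by 0.26 in siPRMT8 against siSCR (adjusted p = 0.0419). The difference of Riok1 in siPRMT1 was 0.25 (adjusted p = 0.0615). Btg1, which binds PRMT1, fell in siPRMT8 by 0.18 against siSCR (adjusted p = 0.0493), and its paralogue Btg2 fell against D3 by 0.16 in siPRMT1 and 0.24 in siPRMT8 (adjusted p = 0.0365 and 0.00593). For Btg2 the difference of siSCR from D3 was already -0.14, which was not called.

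Of 12 stress granule partners of G3bp1, G3bp2 and Caprin1 listed, 10 were tested. Among them none passed in siPRMT1 against siSCR, and 2 rose and 1 fell in siPRMT8, with medians of 0.036 and 0.059. Against D3, 2 rose and 1 fell in siPRMT1 and 1 rose in siPRMT8. The shares that passed were 0%, 30.0%, 30.0% and 10.0%. Lsm14a, a protein of RNA granules, rose by 0.26 (adjusted p = 0.0179) and Tial1 by 0.18 (adjusted p = 0.0330) in siPRMT8 against siSCR, where Atxn2 fell by 0.23 (adjusted p = 0.0421). Usp10, which binds G3BP1, rose in siPRMT1 against D3 by 0.21 (adjusted p = 0.0361) and Cnbp by 0.21 (adjusted p = 0.0343), while Tia1 fell by 0.33 (adjusted p = 0.0218). In siSCR against D3, Usp10 already differed by 0.14 and Tia1 by -0.23, and neither was called. Part of their difference from D3 was thus also present in siSCR. Cnbp read 10.44, 10.36 and 10.23 on the siSCR arrays and 10.34, 10.35 and 10.30 on the D3 arrays.

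**Figure D4:**
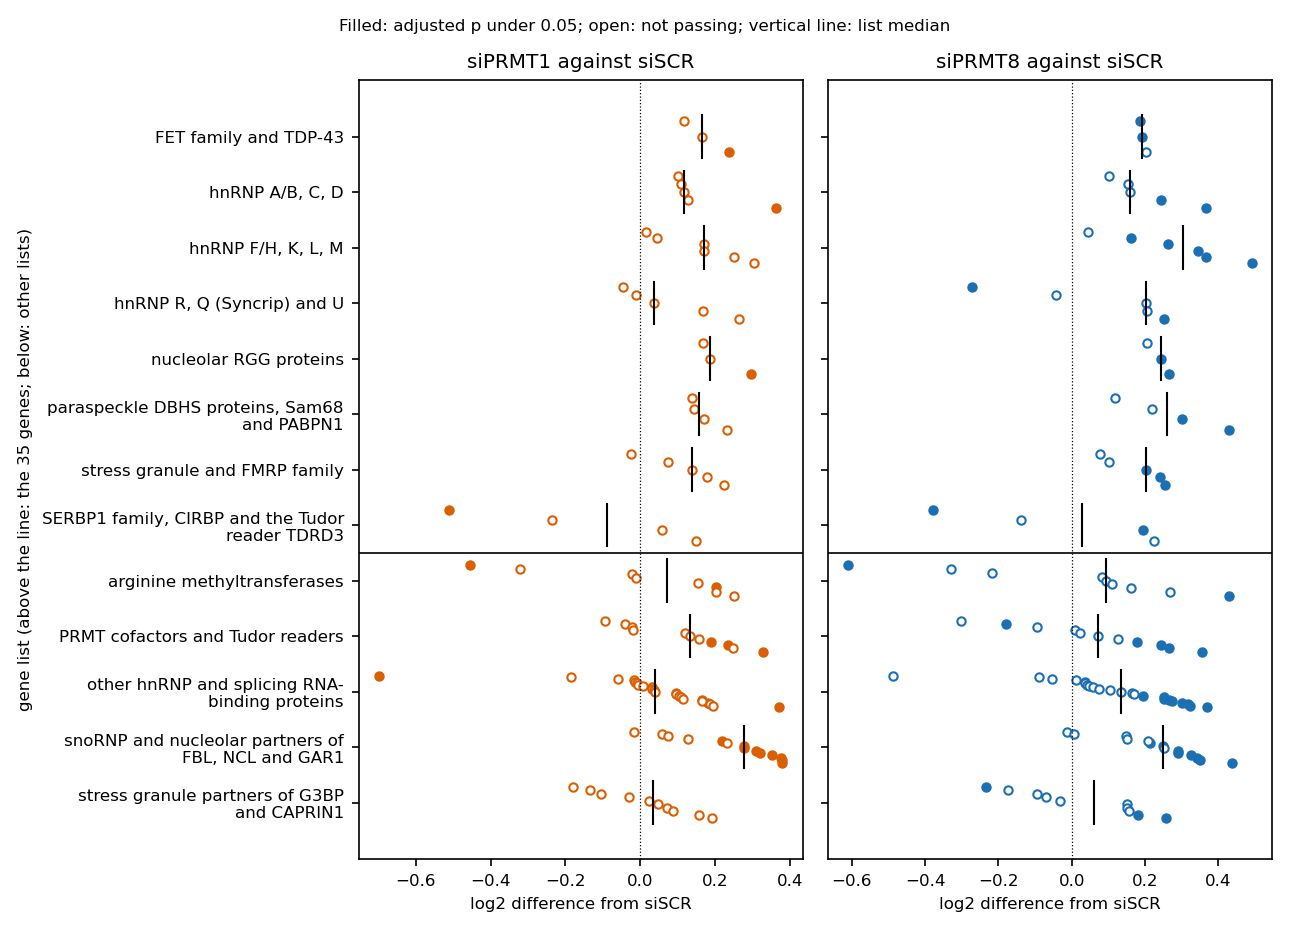
Differences from siSCR of every tested gene in the 8 classes of the 35 genes (above the line) and in the 5 surrounding lists (below it), for siPRMT1 (left) and siPRMT8 (right), on the log2 scale; filled points have an adjusted p under 0.05 and vertical lines are list medians. Prmt1 itself is left out of the siPRMT1 panel and of its median there. The nucleolar partners lie mostly to the right of 0 in both panels, with list medians of 0.28 and 0.25.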

How the data were processed

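The authors deposited 1 log2 value per probe set and array, for 35556 probe sets and 12 arrays. Their scale is taken from their range, 0.97 to 13.54. Per the labels' protocols, total RNA was extracted on silica columns and biotin-labelled cDNA was hybridised. How background, summarisation and normalisation were handled is not given in the sources used here. With array medians within 0.023 of each other, the values were used as deposited.

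By the platform's annotation, 21789 probe sets had 1 symbol, 1621 several and 12146 none. Symbols were updated by gene ID through RefSeq (GRCm38.p6; 21698 matched), and 1 probe set per symbol gave 19938 genes. Genes in the lowest 25% of mean values (under 5.43) were dropped, leaving 14953. limma 3.58.1 in R 4.3.3 (lmFit, eBayes) fitted 4 group means with 8 residual degrees of freedom, and each of 6 contrasts was corrected by Benjamini-Hochberg (threshold 0.05). SE and 95% intervals are limma's moderated ones. The fit was tested on simulated data. The number of arrays limits the precision. Detection calls were not used here, and the labels name no hybridisation batch.

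The members and lists were chosen with earlier results of these data known. Values are given in full for the 20 members with the smallest adjusted p among those that passed; of the surrounding lists up to 2 higher and 2 lower passing genes per contrast were eligible to be named, and Prmt1 and Prmt8 were named as the check of the labels. Replicate numbers recur in every group. The departures of arrays with 1 number from their groups' means correlated above 0.1 in all 3 pairs for siSCR and D3 (0.107 to 0.194) and in 8 of 18 pairs in all. Alternatives were quantile normalisation, median centring, other filters, the mean of probe sets, a trended robust variance, array weights, the replicate number as a block, fits of 2 groups, and leaving out arrays.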

Additional observations from a re-analysis of the deposited data

Results flagged for a closer look

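The 2 knockdown lines differed in 1 of the 2 targeted genes. Prmt1 was lower in siPRMT1 than in siPRMT8 by a log2 difference of -1.49 (SE 0.088, adjusted p = 2.36e-05 in limma, 3 arrays per group). It was lower on 3 of 3 siPRMT1 arrays than on every siPRMT8 array. Prmt8 differed by 0.29 (siPRMT1 minus siPRMT8) and was not called.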

How the results depend on the processing

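The listed genes gave 50 calls over the 4 contrasts of a knockdown with a control. Each was recomputed under 15 or 16 alternatives, 783 recomputations in all, of which 652 kept the call, 131 lost it and none reversed it, and 25 calls were kept under every alternative run, among them the 4 of Hnrnpc and the 4 of Cirbp. The count for siPRMT1 against siSCR, 4 as reported, was 8 after quantile normalisation, 9 with the lowest 50% of genes left out, 10 with a trended robust variance, 18 with array weights, 2 in a fit of the 2 groups compared, and 13 without siSCR replicate 1 and siPRMT1 replicate 2. The count for siPRMT8 against siSCR, 20 as reported, was 12 in a fit of the 2 groups and 24 without siSCR replicate 1 and siPRMT1 replicate 2. For siPRMT1 against D3, 9 as reported, it was 15 with array weights. For siPRMT1 against siPRMT8, 0 as reported, it was 2 with array weights and 3 without the 2 arrays that stood apart. The estimation of array weights stopped before it converged. Leaving out 1 array at a time gave 2 to 12 calls for siPRMT1 against siSCR, 8 to 20 for siPRMT8 against siSCR, 5 to 11 for siPRMT1 against D3, 10 to 16 for siPRMT8 against D3, 0 to 0 for siSCR against D3 and 0 to 2 for siPRMT1 against siPRMT8. With the replicate number as a block, the counts were 5, 16, 8, 15, 0 and 0 in the order siPRMT1 and siPRMT8 against siSCR, siPRMT1 and siPRMT8 against D3, siSCR against D3, and siPRMT1 against siPRMT8, so the pairing moved no count by over 1.5 times; the calls it ended are given beside their genes. The median of the 35 genes moved from 0.18 to 0.14 for siPRMT8 against D3 after quantile normalisation, and from 0.20 to 0.17 for siPRMT8 against siSCR without siPRMT8 replicate 3. The cause of these changes was not tested.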

Other observations

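The marker lists of other cell types gave the following counts for siPRMT1 and siPRMT8 against siSCR, where 7.18% and 10.7% of all genes rose and 11.6% and 13.2% fell. Of 10 neural progenitor markers, 1 rose and 3 fell in siPRMT1, and 4 rose and 2 fell in siPRMT8. Of 9 pluripotent stem cell markers, 1 rose in each line and none fell. The mean level of these 9 lay between 9.71 and 9.81 in D3 and between 9.90 and 10.13 in siSCR. It lay between 9.47 and 10.29 in siPRMT1, lowest on replicate 2, and between 9.75 and 9.98 in siPRMT8. Of 7 mesenchymal markers tested, 4 fell in each line and none rose. Of 7 oligodendrocyte lineage markers tested, 1 rose and 2 fell in siPRMT1, and 2 fell in siPRMT8. Of 6 endothelial markers, 1 rose and 1 fell in siPRMT1, and 1 fell in siPRMT8. Of 5 endoderm markers tested, 2 rose in siPRMT1 and none passed in siPRMT8. Of 6 myeloid markers listed, 2 were tested and neither passed in limma. The part of these cell types in the values of the RNA-binding protein genes was not tested.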
